A study of Mus musculus with 2 samples.

Results

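Barcodes rich in RNA of Gm42418, an annotated noncoding gene whose sequence matches ribosomal RNA, were examined among the T cells of a sort of neonatal Tregs. A barcode counted as a member if it passed the study's own limits of 300 genes or more and no more than 5% mitochondrial UMIs, carried at least 1 UMI of the T cell receptor complex genes Cd3d, Cd3e, Cd3g, Trac and Trbc2, and gave at least 5% of its UMIs to Gm42418, AY036118, Gm26917 and Lars2 together. A UMI is a molecular tag that marks 1 captured RNA molecule, and a barcode marks 1 droplet. By this rule 644 of 21670 T barcodes were members, out of 32658 deposited barcodes. These barcodes had been proposed as rich in nuclear RNA. Below 1000 UMIs, where 391 of the 610 WT members lay, the nuclear RNAs Malat1 and Neat1 were not higher than in other T barcodes of that depth. Those other barcodes gave a median of 3.71% of their UMIs to the genes of the rule, so the contrast was small. In deeper WT barcodes Malat1 was higher in members. The members are therefore called by the narrower name of Gm42418-rich T barcodes here.

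The study profiled CD4+YFP+ cells sorted live, by exclusion of 7AAD, from the spleens of 7-day-old C57BL/6J mice. The WT library came from Foxp3Cre mice and the KO library from Foxp3Cre Zfp335fl/fl mice, in which the Cre recombinase made by Foxp3-expressing cells deletes the floxed Zfp335 gene. Both groups carried the same Foxp3-linked YFP and Cre, so the WT cells also made Cre. There was 1 library per genotype, the number of mice behind each was not given, and every interval below is a 95% interval that covers counting error only. A difference between WT and KO cannot be told apart from a difference between the 2 libraries.

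Ribosomal RNA makes up most of the RNA of a cell, is made in the nucleolus and carries no poly(A) tail, so it should largely escape a method that captures tails. Malat1 and Neat1 are long noncoding RNAs that stay in the nucleus, and Macf1 codes for a giant protein that links microtubules to actin. Tregs are CD4+ T cells that hold immune responses in check, and Foxp3 is the transcription factor that defines them.

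The rule genes lay in 2 places of the mouse genome (GRCm38). Gm42418 (ENSMUSG00000098178) was annotated as a lincRNA gene on the plus strand of chromosome 17 from 39846958 to 39848788, with a transcript of 1831 bases and 60.2% G and C. AY036118 (ENSMUSG00000105361) was a lincRNA gene on the minus strand of the same chromosome from 39847113 to 39848035. All 923 bases of its transcript were the reverse complement of Gm42418 and covered 50.4% of it. Gm26917 (ENSMUSG00000097971), a lincRNA of 3329 bases with 69.1% G and C, lay on the plus strand from 39843013 to 39846341 and ended 616 bases before Gm42418. RefSeq lists Gm42418 as a synonym of Rn18s-rs5, a pseudogene related to the small-subunit ribosomal RNA, at 39846354 to 39848202. Lars2 (ENSMUSG00000035202), which codes for the mitochondrial leucyl-tRNA synthetase, lay apart on chromosome 9 from 123366927 to 123462666.

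The letters below come from GENCODE transcripts on GRCm38 and show why Gm42418 is treated as ribosomal RNA-like. No bases of Gm26917 are shown, and no alignment to a ribosomal RNA sequence was run. The 60 bases at the 5′ end of Gm42418 (chr17:39846958-39847017, plus strand) run through a highly conserved loop of the small-subunit ribosomal RNA. The next stretch (chr17:39847137-39847202, plus strand) holds the longest run of A in the Gm42418 transcript, in capitals, and is shown because the library primer pairs with runs of A. The last line gives the same bases as they stand in the AY036118 transcript on the minus strand, with the same run in capitals.
Gm42418 5′ end: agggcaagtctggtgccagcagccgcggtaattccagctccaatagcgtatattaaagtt
Gm42418 A run: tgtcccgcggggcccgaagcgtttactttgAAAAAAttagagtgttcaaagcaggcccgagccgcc
AY036118 opposite strand: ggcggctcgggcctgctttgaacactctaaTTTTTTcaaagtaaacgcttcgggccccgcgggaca
The run of A was 6 bases long in Gm42418 and also in Lars2, and 37.7% of 141767 annotated transcripts held a run at least as long. The longest run was 4 bases in AY036118 and in Gm26917, which 87.5% of transcripts reached. Whether the strand was used in counting was not stated, and without strand the reads of Gm42418 and AY036118 cannot be told apart.

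Zfp335, the targeted gene, was first examined as a check of the labels. The WT members held 9 UMIs of Zfp335, or 13.0 CPM (5.94 to 24.7), and the WT comparison barcodes 265 UMIs, or 9.52 CPM. CPM is the number of UMIs of a gene scaled to 1000000 UMIs, here without those of the rule genes. The KO members held 0 UMIs, for which 3 UMIs would be 51.2 CPM, and the 13195 KO comparison barcodes held 49, or 1.04 CPM (0.768 to 1.37). The comparison barcodes were the T barcodes of the same library below 5% and within the members' UMI range, 5943 in WT and 13195 in KO.

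The members were far more frequent in the WT library. They were 610 of 7967 WT T barcodes, or 7.66% (7.08 to 8.26), and 34 of 13703 KO T barcodes, or 0.248% (0.172 to 0.347). The KO share was 7.41 percentage points below the WT share (KO minus WT -7.41, -8.02 to -6.84), a WT to KO ratio of 30.9 (21.8 to 45.0). The median rule-gene share of all T barcodes was 1.31% in WT and 0.674% in KO, so the same threshold stood closer to the bulk of WT barcodes than of KO barcodes. With a threshold set in each library at 4 times its own median share, an alternative chosen after seeing the data, the shares were 6.93% and 0.985%. Among all deposited barcodes, 70 barcode sequences occurred in both libraries, and 2 of them belonged to WT members.

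The members were shallow barcodes. WT members had 599 to 10560 UMIs with a median of 758 and a median of 473 genes, against 4633 UMIs and 1721 genes in the comparison barcodes. KO members had 826 to 15171 UMIs with medians of 1521.5 UMIs and 750.5 genes, against 2638 and 1153. The rule-gene share ranged from 5.01% to 44.3% in WT members (median 6.27%) and from 5.08% to 42.2% in KO members (median 6.93%), and it reached 10% in 58 WT and 7 KO members. The rule cut a continuous range rather than a separate group. Just inside it, from 5% to 5.5%, lay 140 WT barcodes with a median of 720 UMIs and 1.28% mitochondrial UMIs, and just outside, from 4.5% to 5%, lay 187 with a median of 724 UMIs and 1.28%. In KO the corresponding numbers were 5 barcodes with a median of 1139 UMIs and 8 with 1307.

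The share of members depended steeply on depth in WT and far less in KO. Between 500 and 1000 UMIs the members were 36.4% (33.5 to 39.3) of 1075 WT and 0.637% (0.256 to 1.31) of 1099 KO T barcodes. Between 1000 and 2000 UMIs they were 28.2% (24.4 to 32.2) of 535 and 0.505% (0.313 to 0.771) of 4160. The WT share then dropped to 2.90% between 2000 and 4000 UMIs and 0.936% between 4000 and 8000, where KO had 5 of 3749 and 0 of 3043, with an exact upper limit of 0.121%. From 8000 to 16000 UMIs there were 2 WT and 1 KO members, a difference of -0.0496 percentage points (-0.395 to 0.330) that was not detectable at this number of barcodes, and no member had 16000 UMIs or more. At least 1 member was therefore found in every KO depth class below 4000 UMIs, at a lower share than in WT in each of them.

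The rise with falling depth was also present in the median barcode, not only at the threshold. The median rule-gene share went from 0.523% in WT T barcodes of 16000 UMIs or more to 1.71% at 2000 to 4000 and 4.43% below 1000. In KO it went from 0.289% to 0.685% and 1.11% over the same classes. Across T barcodes, which share 1 library, the rank correlation of rule-gene share with UMI count was -0.80 in WT and -0.66 in KO. WT barcodes started at 599 UMIs and KO barcodes at 820, so the lowest class did not hold the same range in both.

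**Figure D1:**
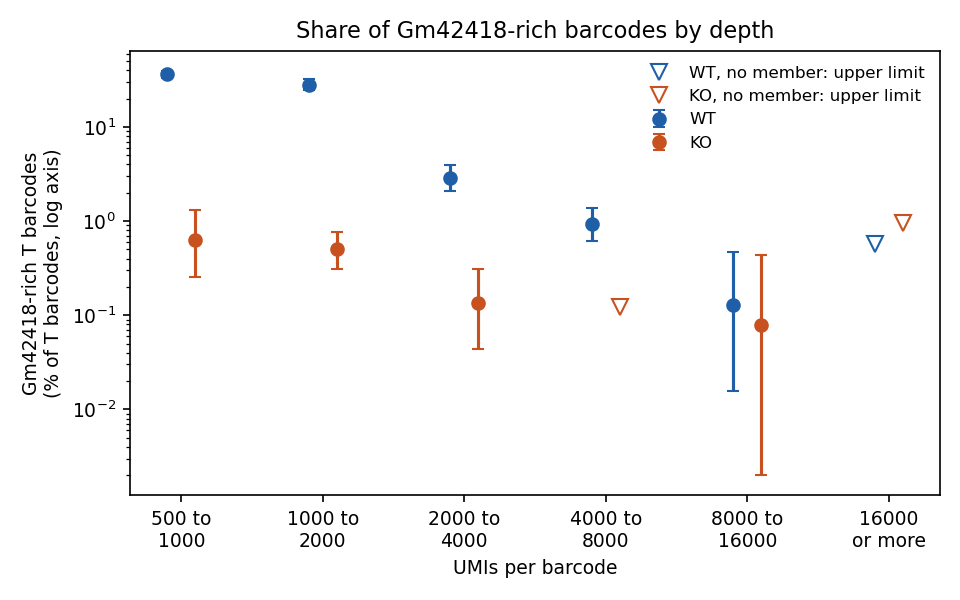
The percent of T barcodes that were Gm42418-rich is plotted on a log axis against UMI class for WT and KO, with exact 95% intervals, and open triangles mark the upper limit where no member was found. WT shares were 36.4% and 28.2% below 2000 UMIs and 0.936% at 4000 to 8000, whereas KO shares stayed below 1% in every class.

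Members were not confined to barcodes with high mitochondrial content. In WT they were 31.2% of the 753 T barcodes with up to 1% mitochondrial UMIs, 2.08% of the 3272 at 2% to 3% and 10.8% of the 724 at 4% to 5%. The share was thus higher at both ends. Depth differed between these WT classes, with medians of 728, 6109 and 2834 UMIs, so this pattern cannot be told apart from that of depth. In KO the corresponding shares were 0.924%, 0.127% and 0.694%, from 6, 7 and 7 members. The median mitochondrial share was 1.31% in WT members against 2.51% in comparison barcodes, and 2.92% in KO members against 2.32%.

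Gm42418 supplied most of the rule-gene RNA in both libraries. It held 6.68% of all UMIs of the WT members and 6.76% of those of the KO members, against 1.27% and 0.573% in the comparison barcodes, and every member had at least 1 Gm42418 UMI. AY036118 held 0.228% in WT members and 0.0232% in KO members, Lars2 0.222% and 0.160%, and Gm26917 0.318% and 2.39%. These values chose the members and are given as a description. The proportion of these RNAs to each other, given next per 100 UMIs of Gm42418, is a description too, since a barcode could pass the rule through any of them. The lowest Gm42418 share of a member was 3.56% in WT and 2.02% in KO.

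In the pooled WT sums, AY036118 and Lars2 stood in nearly the same proportion to Gm42418 in members and comparison barcodes, and Gm26917 did not. Per 100 UMIs of Gm42418 there were 3.41 UMIs of AY036118 (3.24 to 3.57) in members and 3.48 (3.42 to 3.54) in comparison barcodes. For Lars2 the values were 3.32 (3.16 to 3.49) and 3.30 (3.24 to 3.36). For Gm26917 they were 4.75 (4.56 to 4.95) and 1.65 (1.61 to 1.70), with no overlap of the intervals. Gm26917 was absent from 354 of the 610 WT members. Within the shallower depth classes the proportions lay further apart. Below 1000 UMIs there were 4.10 UMIs of AY036118 per 100 in WT members against 4.68 in comparison barcodes, 2.66 against 2.15 of Lars2 and 2.82 against 1.21 of Gm26917. At 1000 to 2000 UMIs the values were 3.37 against 4.48, 4.26 against 3.15 and 7.59 against 1.73. AY036118 was thus lower and the other RNAs higher in members of these depth classes, with Gm26917 furthest apart.

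The KO members carried yet more Gm26917. They had 35.4 UMIs per 100 of Gm42418 (33.4 to 37.5), against 4.97 (4.88 to 5.05) in KO comparison barcodes. The deepest KO member, with 15171 UMIs, held 788 Gm26917 UMIs, 51.0% of those of all KO members, and without it the proportion was 18.6 (17.2 to 20.1). At least 10 UMIs of Gm26917 per 100 of Gm42418 were found in 20 of 34 KO members (58.8%) and in 53 of 610 WT members (8.69%), and exceeded Gm42418 in 2 KO members and 0 WT members. AY036118 was scarce in KO, at 0.344 per 100 (0.192 to 0.568) in members and 0.918 (0.882 to 0.955) in comparison barcodes, and 23 of 34 KO members had no UMI of it. Lars2 stood at 2.36 (1.92 to 2.87) and 2.75 (2.69 to 2.82). The KO to WT difference in AY036118 was thus present in comparison barcodes as well as in members.

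**Figure D2:**
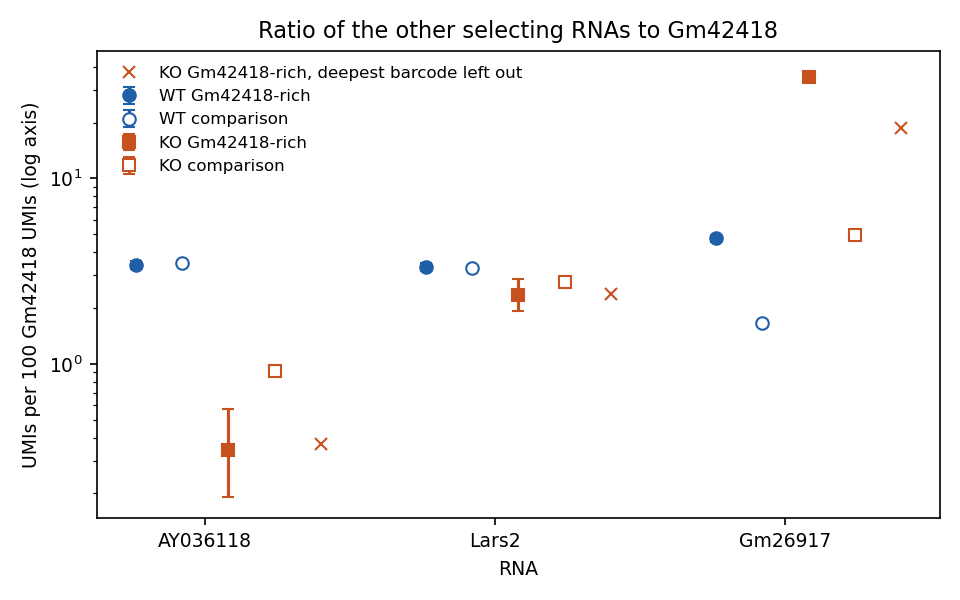
Pooled UMIs of AY036118, Gm26917 and Lars2 per 100 UMIs of Gm42418 (log axis) are plotted for members (filled) and comparison barcodes (open) of each library, with 95% intervals and a cross for KO members without the deepest barcode. AY036118 and Lars2 differed little between WT members (3.41 and 3.32) and WT comparison barcodes (3.48 and 3.30), whereas Gm26917 was 4.75 against 1.65 in WT and 35.4 against 4.97 in KO.

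Over all depths together, Malat1 and Macf1 stood higher in the members of both libraries and Neat1 in those of WT. Malat1 was at 32533 CPM in WT members against 23852 in comparison barcodes, a ratio of 1.36 (1.35 to 1.38), and the KO ratio was 1.57 (1.5 to 1.64). Neat1 had ratios of 1.88 (1.60 to 2.18) in WT and 1.55 (0.826 to 2.66) in KO. Without the deepest KO member 5 of the 13 Neat1 UMIs remained, or 112 CPM, below the 143 CPM of KO comparison barcodes. Macf1 had ratios of 2.17 (1.99 to 2.37) and 2.12 (1.42 to 3.05). The members are shallower than the comparison barcodes, so each value was also taken within depth classes, which were chosen after seeing the data.

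Below 1000 UMIs, where most WT members lay, the 391 members differed little from the 684 comparison barcodes of that depth in these nuclear and cytoplasmic RNAs. Malat1 was at 17234 CPM in members and 18461 in comparison barcodes, a ratio of 0.934 (0.900 to 0.968), and Neat1 had a ratio of 0.945 (0.642 to 1.37). Ribosomal protein genes had a ratio of 1.00 (0.994 to 1.01), the immediate early genes 1.08 (0.990 to 1.19) and the very long transcripts 1.07 (1.00 to 1.15). Macf1 was at 422 against 317 CPM, a ratio of 1.33 (1.03 to 1.71) that was 1.27 (0.983 to 1.64) without barcodes over 1% erythroid UMIs. The contrast in rule-gene RNA was small in this class, with median shares of 6.11% in members and 3.71% in comparison barcodes. The rule-gene CPM ratio was 1.89, against 3.04 at 1000 to 2000 UMIs, 5.08 at 2000 to 4000 and 6.28 from 4000. The label "nuclear RNA-rich" was thus not borne out at this small contrast, which says little about a larger one. Some RNA of other lineages and of mitochondria was lower there. The ratios were 0.718 (0.639 to 0.804) for neutrophil, 0.507 (0.378 to 0.671) for macrophage and dendritic and 0.867 (0.834 to 0.902) for mitochondrially encoded genes. Erythroid genes had a ratio of 0.609 (0.576 to 0.644), which was 0.969 (0.874 to 1.07) without barcodes over 1% erythroid UMIs. B cell genes had a ratio of 1.08 (0.812 to 1.43).

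Between 1000 and 2000 UMIs the members differed from their neighbours in both libraries. The comparison barcodes of this class had a median rule-gene share of 2.78% in WT and 0.962% in KO. Every WT and KO ratio of this class thus has an unlike baseline, and a larger KO ratio is not by itself a higher level in KO members. Malat1 was at 48198 against 42071 CPM in WT (151 members, 384 comparison barcodes), a ratio of 1.15 (1.12 to 1.17), and at 45257 against 23015 CPM in KO (21 members, 4139 comparison barcodes), a ratio of 1.97 (1.86 to 2.08). Macf1 was at 1162 against 709 CPM in WT, 1.64-fold (1.38 to 1.93), and at 785 against 235 CPM in KO, 3.35-fold (2.09 to 5.09). Neat1 was higher in WT members, with a ratio of 1.42 (1.06 to 1.89), whereas in KO it rested on 2 UMIs and had a ratio of 0.522 (0.0632 to 1.89). In WT the ratio for Malat1 was larger still in deeper members, at 1.20 (1.17 to 1.24) in the 40 members of 2000 to 4000 UMIs and 1.40 (1.36 to 1.45) in the 28 of 4000 or more. The Malat1 level of those members was not higher, at 45888 and 29318 CPM, against 38164 and 20923 CPM in comparison barcodes. The ratio thus rose as the comparison level fell, and these classes have an unlike baseline too.

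The immediate early genes, which cells switch on within minutes of a stimulus, behaved in the same way in the 1000 to 2000 UMI class and differently in deep barcodes. Jun, a subunit of the AP-1 transcription factor, was at 1484 against 735 CPM in WT, 2.02-fold (1.73 to 2.35), and at 1392 against 329 CPM in KO, 4.23-fold (3.0 to 5.80). Junb, another AP-1 subunit, had ratios of 1.66 (1.42 to 1.95) and 2.41 (1.67 to 3.35). Zfp36, which codes for an RNA-destabilizing protein, had ratios of 2.64 (1.94 to 3.61) and 2.35 (0.942 to 4.88). All 12 genes of the list summed to a ratio of 1.69 (1.59 to 1.80) in WT and 2.06 (1.77 to 2.38) in KO. In WT members of 4000 UMIs or more the list lay below the comparison, at 0.840 (0.755 to 0.932), and Fos at 0.543 (0.326 to 0.848).

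Short, abundant messages of the cytoplasm stood lower in the same class. Ribosomal protein genes had a ratio of 0.881 (0.871 to 0.892) in WT and 0.865 (0.843 to 0.887) in KO. Nuclear genes for oxidative phosphorylation had ratios of 0.886 (0.853 to 0.919) and 0.791 (0.728 to 0.859). Actb, the cytoskeletal actin gene, was at 0.851 (0.799 to 0.907) in WT and 0.406 (0.344 to 0.478) in KO. Erythroid RNA moved with these values, with ratios of 1.90 in WT and 1.56 in KO, and without barcodes over 1% erythroid UMIs the WT ratios were 1.77 (1.66 to 1.89) for the immediate early genes, 1.68 (1.42 to 1.99) for Macf1 and 0.906 (0.895 to 0.918) for ribosomal protein genes.

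**Figure D3:**
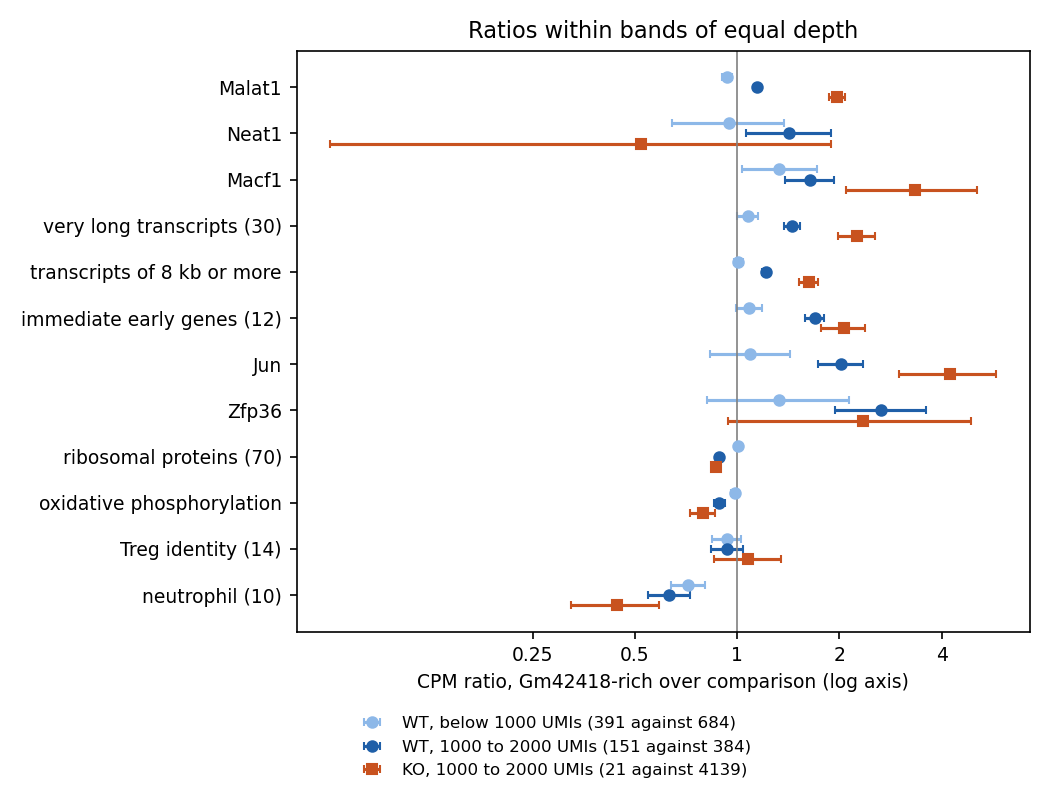
CPM ratios of members to comparison barcodes (log axis) with 95% intervals are plotted for single genes and summed gene lists in WT members below 1000 UMIs and in WT and KO members of 1000 to 2000 UMIs. In WT the ratios of Malat1 and of ribosomal protein genes were 0.934 and 1.00 below 1000 UMIs, and 1.15 and 0.881 at 1000 to 2000 UMIs.

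Long transcripts had higher ratios than short ones in both libraries, with no order between the 2 shortest classes in KO. Genes with at least 2000 UMIs were classed by their longest annotated transcript, and the median log2 ratio of WT members to comparison barcodes was -0.23 for transcripts below 1 kb (247 genes), -0.18 at 1 to 2 kb (466 genes), 0.00 at 2 to 4 kb (708 genes) and 0.50 at 8 kb or more (134 genes). In KO the same medians were -0.28 (299 genes), -0.30 (712 genes), -0.14 (1120 genes) and 0.50 (177 genes). Of the WT genes of 8 kb or more, 41.0% were at least 1.5-fold higher and none of the 134 was 1.5-fold lower, beside 8.52% higher and 3.13% lower among all 2042 WT genes with that many UMIs. Weighting the comparison barcodes to the members' depth left the WT median of the longest class at 0.37. Within the WT class below 1000 UMIs the summed ratio of transcripts of 8 kb or more was 1.01 (0.976 to 1.04), whereas at 1000 to 2000 UMIs WT members had 1.22 (1.19 to 1.25) and KO members 1.62 (1.52 to 1.73).

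**Figure D4:**
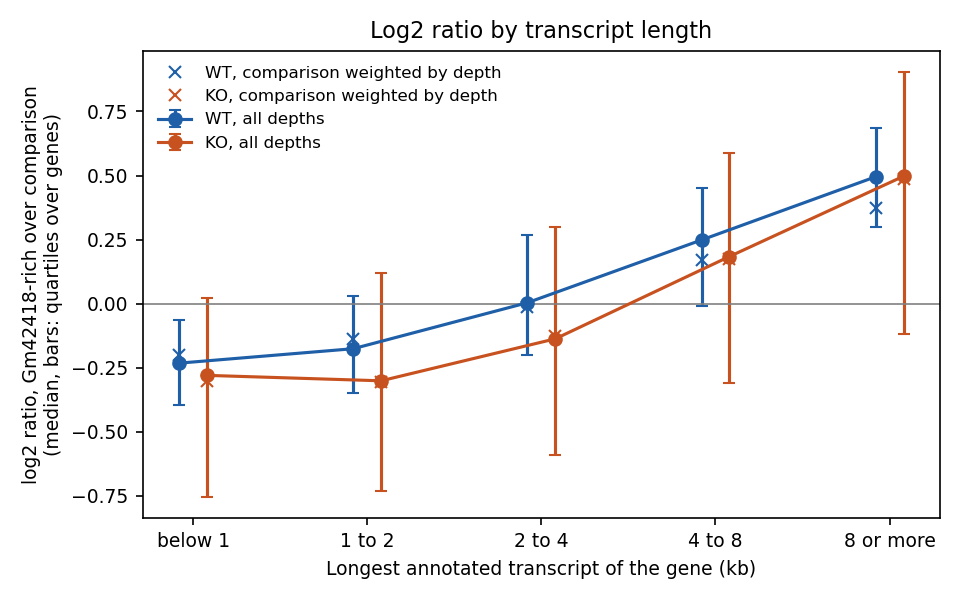
The median and quartiles of the log2 ratio of members to comparison barcodes are plotted by transcript length class (kb) for genes with at least 2000 UMIs in each library, with crosses for the depth-weighted medians. The median went from -0.23 below 1 kb to 0.50 at 8 kb or more in WT, and from -0.28 to 0.50 in KO.

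The list of very long transcripts gave the same picture gene by gene. In WT 22 of 30 genes were at least 1.5-fold higher and 0 lower, beside 25.1% higher and 8.67% lower among all 10764 WT genes with at least 50 UMIs. In KO 22 of 30 were higher and 1 lower, beside 24.8% and 26.7% of 11206 genes. In KO the genes called lower numbered 2996 with at least 50 UMIs and also 2996 with at least 200 UMIs. No KO gene with fewer than 200 UMIs was thus called lower, so the 26.7% was set in part by the filter. The same limit applies to each later comparison with this share. The summed CPM of the 30 listed genes was 1.66-fold (1.62 to 1.71) that of the comparison barcodes in WT and 1.88-fold (1.71 to 2.07) in KO. Ankrd11, a chromatin regulator gene, was at 752 against 418 CPM in WT members, a ratio of 1.80 (1.65 to 1.97), and had a KO ratio of 2.23 (1.69 to 2.90). Prrc2c had ratios of 1.59 (1.47 to 1.71) and 1.61 (1.19 to 2.12), Atrx, a chromatin remodeler, 1.55 (1.40 to 1.72) and 1.20 (0.763 to 1.81), and the anchoring protein gene Akap13 1.20 (1.08 to 1.33) and 2.12 (1.57 to 2.79). Huwe1, a giant ubiquitin ligase, had ratios of 1.91 and 2.51, Utrn, which codes for a dystrophin relative, 2.14 and 2.53, and the histone methyltransferase gene Kmt2a 2.04 and 2.07. Kmt2d, another methyltransferase gene, was at 3.14 (2.48 to 3.91) in WT and 1.06 in KO.

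Other lists tied to the nucleus moved less. Of 11 measured nuclear-retained RNAs 4 were higher and 0 lower in WT, and 7 higher and 0 lower in KO, with median log2 ratios of 0.45 and 0.65. In KO, Jpx, Pvt1, Airn, Mir142hg and Snhg14, 5 of those 7, had 1 to 3 member UMIs each. Xist, the noncoding RNA that coats the inactive X chromosome, had ratios of 1.45 (1.26 to 1.65) in WT and 0.864 (0.578 to 1.24) in KO. Of 24 genes with detained introns or for splicing factors 6 were higher and 0 lower in WT, and 7 higher and 1 lower in KO, shares of higher genes near those over all genes. Son, which codes for a protein of nuclear speckles, had ratios of 1.52 and 1.74, and Srrm2, a further speckle component, 1.46 and 1.70. The median over all genes with 50 UMIs was 0.22 in WT and -0.19 in KO, and that of the 24 genes was 0.41 and 0.23.

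Ribosomal protein and respiratory chain genes lay below it in WT, whereas tRNA synthetase and ribosome biogenesis genes did not. Of 68 ribosomal protein genes 0 were 1.5-fold higher or lower in WT, but their median log2 ratio was -0.28 and their summed ratio 0.832 (0.827 to 0.836). Rpsa, the member with the most UMIs, had ratios of 0.895 (0.868 to 0.922) in WT and 1.07 (0.967 to 1.17) in KO. In KO 1 was higher and 5 lower, with a median of -0.22 and a summed ratio of 0.884 (0.869 to 0.899). Of 86 oxidative phosphorylation genes 2 were higher and 1 lower in WT, and 3 higher and 32 lower in KO, with summed ratios of 0.906 (0.891 to 0.920) and 0.818 (0.772 to 0.865). Lars2 is an aminoacyl-tRNA synthetase gene, and of the 35 others 11 were higher and 2 lower in WT and 4 higher and 8 lower in KO, with summed ratios of 1.30 (1.23 to 1.38) and 1.09 (0.871 to 1.34). Over all genes 25.1% were higher and 8.67% lower in WT, and 24.8% higher and 26.7% lower in KO. Of 16 ribosome biogenesis genes 4 were higher and 0 lower in WT, and 3 higher and 4 lower in KO. Ncl, the main nucleolar protein gene nucleolin, had ratios of 1.62 (1.53 to 1.72) and 1.14 (0.934 to 1.38).

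Across all genes, 733 of 8165 with at least 200 UMIs in each library were at least 1.5-fold higher in members in both libraries (8.98%) and 191 were lower in both (2.34%). Centred on the median gene of each library the numbers were 422 higher and 358 lower, and with CPM over all UMIs they were 501 and 269. With the comparison weighted to the members' depth 436 were higher. At the limit of 200 UMIs a gene without a difference would have 4.85 UMIs in WT members and 0.248 in KO members, so that a KO call of a sparse gene can rest on 1 UMI.

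Of the 10 leading higher genes, 6 were red cell genes or lay in the few members with erythroid RNA. Slc4a1, the anion exchanger of red cells, had ratios of 8.96 (7.18 to 11.1) in WT and 12.4 (7.43 to 19.4) in KO, and 85.7% of its 105 WT member UMIs lay in the 29 WT members with over 1% erythroid UMIs. Alas2, which starts haem synthesis in red cells, had ratios of 5.72 and 5.98, Slc25a37, an iron importer of mitochondria, 4.51 and 7.02, and Epb41, a protein of the red cell membrane skeleton, 3.38 and 4.71. Rsad2, best known as an antiviral interferon-stimulated gene, had ratios of 5.30 and 7.82, with 98.1% of its WT and all of its 10 KO member UMIs in those erythroid-rich members. Tmcc2 had 100% there in both libraries. The remaining members held 15 Slc4a1 UMIs, or 23.0 CPM, beside 16.9 CPM in all WT comparison barcodes.

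The other 4 leading genes were spread over members without erythroid RNA. Hspa1a and Hspa1b, near-identical genes for the inducible heat shock protein of the HSP70 family, had WT ratios of 3.52 (2.47 to 4.89) and 5.52 (4.02 to 7.44), each with UMIs in 25 of 610 members. In KO their ratios were 16 and 11.3, from 32 and 13 UMIs in 4 barcodes, of which the deepest member held 17 and 8. Plk2, which codes for a stress-responsive kinase, had 30 UMIs in 28 WT members, a ratio of 3.81 (2.53 to 5.54), and 10 UMIs in 5 KO members. Frat1, a Wnt pathway gene, had 20 UMIs in 20 WT members, a ratio of 3.76 (2.25 to 5.95), and 3 UMIs in KO. Reads of the 2 Hspa1 genes may have been split between them by the counting.

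The 10 leading lower genes were mostly genes of other blood cells. Ngp, a granule protein of immature neutrophils, had ratios of 0.260 (0.200 to 0.333) in WT and 0.313 (0.126 to 0.644) in KO. Cstdc4, of the neutrophil stefin cluster, was at 0.206 (0.143 to 0.289) and 0.171 (0.0207 to 0.619). Stfa2l1 was at 0.206 (0.118 to 0.336) and 0.286 (0.0347 to 1.04). The neutrophil collagenase Mmp8 had 0 UMIs in members of both libraries. Csta2 and Ifitm1 had 1 WT member UMI each, Chil3 had 2, and Igkc, the immunoglobulin kappa constant region, had 10, a ratio of 0.294. Gzma, a protease of cytotoxic cells, and Slc52a2, a riboflavin transporter, had 4 each, and none of these 6 had a UMI in KO members. For these 6 and Mmp8 the upper limits of the KO ratios ran from 1.97 (Csta2) to 4.32 (Ifitm1). A lower level in KO members was thus not resolved for these genes.

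Most members carried T cell and Treg RNA. The 14 T cell genes outside the rule had summed ratios of 0.928 (0.898 to 0.958) in WT and 0.829 (0.732 to 0.936) in KO, where 5 were lower and 1 higher. Over all KO genes with at least 50 UMIs 26.7% were lower and 24.8% higher. The WT ratio was 1.04 (0.966 to 1.11) below 1000 UMIs and 0.872 (0.811 to 0.936) at 1000 to 2000 UMIs, and above that 0.983 (0.907 to 1.06) up to 4000 UMIs and 1.07 (0.996 to 1.14) from there. The KO ratio was 0.990 (0.835 to 1.17) at 1000 to 2000 UMIs and 0.497 (0.335 to 0.710) in the 5 members at 2000 to 4000 UMIs. After each barcode was thinned to 500 UMIs outside the rule genes, 89.7% (87.0 to 92.0) of WT members had a UMI of a T cell gene outside the rule, against 91.6% of comparison barcodes and 89.3% of comparison barcodes below 1000 UMIs. Treg identity genes were seen in 69.5% (65.7 to 73.1), 69.2% and 70.5%. In non-member WT barcodes with over 10% erythroid UMIs the same shares were 32.4% (25 to 40.6) and 23.6%. These barcodes were chosen for erythroid RNA, which takes up part of the 500 UMIs, and they had a median of 238.5 genes against 362 in members. Their lower shares were thus set in part by that choice, in KO as in WT, and say nothing on the identity of the members. Without thinning the member shares were 96.9% and 84.3%, at a median of 758 UMIs, and those of the erythroid-rich barcodes 93.9% and 83.8%, at a median of 4543. In KO members the thinned shares were 94.1% and 76.5% (58.8 to 89.3), against 90.5% and 70.1% in comparison barcodes and 57.9% (52.7 to 62.9) and 42.4% (37.4 to 47.5) in the 382 erythroid-rich KO barcodes.

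Foxp3 was sparse. It had 37 UMIs in WT members, or 53.4 CPM against 51.4 in comparison barcodes, a ratio of 1.04 (0.729 to 1.44), and 4 UMIs in KO members, a ratio of 1.49 (0.405 to 3.82). Thinned to 500 UMIs, 2.62% (1.51 to 4.23) of WT members had a Foxp3 UMI, beside 2.32% of comparison barcodes and 0.676% of the 148 erythroid-rich barcodes. Among Treg identity genes, Ikzf2, which codes for the Ikaros family factor Helios, had a WT ratio of 1.19 (1.09 to 1.29), and Izumo1r, the folate receptor of Tregs, 0.740 (0.648 to 0.840). Of the 14 genes of this list 0 were past 1.5-fold in WT, and 0 higher and 5 lower in KO, with summed ratios of 0.957 (0.915 to 1.00) and 0.870 (0.733 to 1.02). Over all genes 25.1% were higher and 8.67% lower in WT, and 24.8% higher and 26.7% lower in KO. The T cell receptor complex genes, which the rule used, had summed ratios of 0.746 and 0.738. In 80 WT members (13.1%) and 1 KO member the T label rested on a single UMI.

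Treg state genes were similar or lower. The 12 resting genes, such as Klf2, which keeps T cells quiescent, gave a summed ratio of 0.973 (0.920 to 1.03) in WT and 0.835 (0.686 to 1.01) in KO. The 16 effector genes gave 0.748 (0.716 to 0.782) in WT, 5 of them lower and 2 higher, beside 8.67% lower and 25.1% higher over all WT genes. S100a6, a calcium-binding protein of effector Tregs, was at 729 against 1137 CPM in WT members, a ratio of 0.641 (0.586 to 0.700). With the comparison weighted to the members' depth the WT effector ratio was 0.907. The interferon-stimulated genes gave 0.774 (0.729 to 0.821) in WT, and 0.916 after depth weighting. The KO ratios of these 2 lists were 0.844 (0.653 to 1.07) and 0.881 (0.729 to 1.06).

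Over all depths together, cell cycle RNA was higher in WT members and not in KO members. Of 15 S phase genes 11 were higher in WT, with a summed ratio of 1.73 (1.62 to 1.84), and in KO 1 was higher and 6 lower, with a ratio of 0.738 (0.553 to 0.966). Over all genes 25.1% were higher in WT, and 24.8% were higher and 26.7% lower in KO. Pcna, the sliding clamp of DNA polymerase, had a WT ratio of 1.80 (1.48 to 2.18). The 15 mitosis genes gave 1.78 (1.68 to 1.89) in WT, led by the proliferation marker Mki67 at 2.56 (2.27 to 2.89), and 1.09 (0.890 to 1.32) in KO. Weighted for depth, the WT ratios were 1.15 and 1.25. At 1000 to 2000 UMIs WT members had an S phase ratio of 0.904 (0.775 to 1.05) and KO members one of 0.719 (0.470 to 1.06), and the mitosis ratios were 1.55 (1.37 to 1.76) and 0.991 (0.722 to 1.33). Thinned to 500 UMIs, 24.4% of WT members had an Mki67 or Top2a UMI, against 12.1% of all comparison barcodes but 26.8% of those below 1000 UMIs. A share of 36.5% (28.7 to 44.8) of the erythroid-rich barcodes had such a UMI.

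RNA of other lineages was measured in every member. Over 1% erythroid UMIs was found in 29 of 610 WT members (4.75%) and 165 of 5943 comparison barcodes (2.78%), and in 5 of 34 KO members (14.7%) and 18.7% of comparison barcodes. All 7 measured erythroid genes were higher in WT members, beside 25.1% of all WT genes. Their summed ratio was 2.43 (2.39 to 2.47), and 22 members had over 10% of such UMIs. Below 1000 UMIs the order was the other way, with a ratio of 0.609 (0.576 to 0.644) and 2.56% of members against 7.46% of comparison barcodes. Without the barcodes over 1% erythroid UMIs that ratio was 0.969 (0.874 to 1.07). Neutrophil genes had summed ratios of 0.313 (0.292 to 0.336) in WT and 0.510 (0.418 to 0.616) in KO, and S100a9, a calgranulin, was at 355 against 1498 CPM in WT. Macrophage and dendritic genes gave 0.504 in WT and 0.751 in KO, and B cell genes 0.711 and 0.717. In 0 of 610 WT members did macrophage and dendritic genes exceed 1% of UMIs.

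Stress and survival lists were close to the comparison in WT. The 10 heat shock genes gave a summed ratio of 1.20 (1.16 to 1.24) in WT and 1.12 (1.02 to 1.24) in KO. The 13 apoptosis and survival genes gave 1.17 (1.09 to 1.25) and 0.992 (0.762 to 1.27). The p53 target genes gave 1.05 (0.936 to 1.17) in WT but 2.39 (1.90 to 2.97) in KO, where 10 of 12 measured genes were higher, beside 24.8% of all KO genes. The KO value rested in large part on 1 barcode, since p53 target RNA in KO members was at 1418 CPM with the deepest member and 810 CPM without it. Cdkn1a, which stops the cell cycle, had 11 UMIs in KO members and 2 without that barcode, and Phlda3 had 7 and 0. In the 21 KO members of 1000 to 2000 UMIs the p53 ratio was 1.01 (0.600 to 1.61).

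Mitochondrially encoded genes, whose sum the filter limits, gave a ratio of 0.966 (0.952 to 0.981) in WT and 1.37 (1.31 to 1.43) in KO. The subunit of respiratory complex IV mt-Co1 was at 1.02 (0.985 to 1.05) in WT and 1.74 (1.57 to 1.92) in KO. Zfp335 and the 5 other genes that the study picked from its own Treg data gave 0.963 (0.901 to 1.03) in WT and 0.666 (0.452 to 0.945) in KO. Both values compare members with comparison barcodes inside 1 library. The study chose those 5 by comparing WT and KO Treg clusters of this same single-cell experiment, so their KO to WT direction here is no independent evidence. The paper also reports them lower in Zfp335-deficient Tregs of tamoxifen-treated ERCre Zfp335fl/fl mice and of heterozygous mice.

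**Figure D5:**
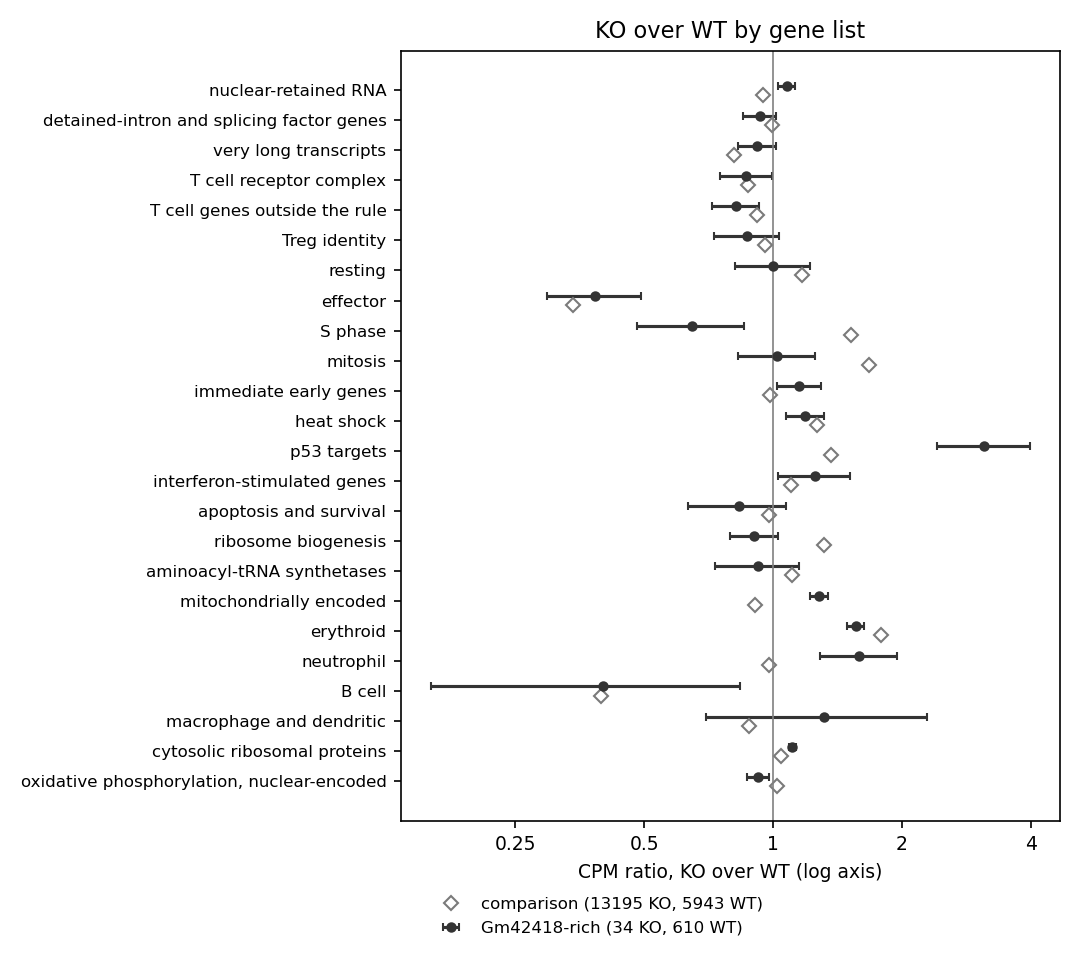
CPM ratios of KO to WT by gene list (log axis) over all depths are plotted for members, with 95% intervals, and for comparison barcodes. The ratio for S phase genes was 0.648 in members and 1.52 in comparison barcodes, whereas that for effector genes was 0.384 and 0.341.

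KO and WT members were then compared with each other, with the same ratio over comparison barcodes beside each value. Of 2491 genes with at least 50 UMIs over the members of both libraries, 9.43% were at least 1.5-fold higher and 25.5% at least 1.5-fold lower in KO. Effector genes were lower in KO members, at 0.384 (0.296 to 0.491), as they were in comparison barcodes, at 0.341. Treg identity genes had ratios of 0.870 (0.729 to 1.03) and 0.958, and the very long transcripts 0.919 (0.830 to 1.01) and 0.813. For these lists the genotype difference within members resembled that in other T barcodes. The immediate early genes had ratios of 1.15 (1.02 to 1.29) and 0.982.

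For the proliferation lists the pooled ratios differed between members and other T barcodes, and less so at equal depth for S phase. S phase genes were at 905 CPM in KO and 1397 CPM in WT members, a ratio of 0.648 (0.482 to 0.855), against 1.52 in comparison barcodes. Mitosis genes had ratios of 1.02 (0.827 to 1.25) and 1.67. Hist1h2ae, a replication-linked histone gene, had 6 UMIs in KO and 272 in WT members, a ratio of 0.261 (0.0949 to 0.575), beside 1.01. WT members lay at lower depth than KO members. At 1000 to 2000 UMIs S phase RNA was at 928 CPM in KO and 1172 CPM in WT members, and at 1290 and 1297 CPM in comparison barcodes. Mitosis RNA in that class was at 1606 and 2037 CPM in members and 1621 and 1313 CPM in comparison barcodes.

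Single genes with the lowest KO to WT ratios included S100a6, at 0.141 (0.0513 to 0.308) with 0.0895 in comparison barcodes, and the noncoding RNA AW112010, at 0.132 (0.0271 to 0.391) with 0.306. S100a10, another S100 gene, was at 0.412 and 0.297, and Ndufa4, a respiratory chain subunit, at 0.210 (0.0678 to 0.497) and 0.428. Actin regulators followed, with Arpc5 at 0.355 and 0.653, Actr3 at 0.382 and 0.726 and Abracl at 0.292 and 0.781. Eif3m, a translation initiation factor subunit, was at 0.333 (0.121 to 0.737) beside 1.03, and Ptprc, which codes for CD45, at 0.420 (0.277 to 0.612) beside 0.708. The KO members held 3 to 28 UMIs of each of these genes. Without the deepest KO member 1 of 6 S100a6 UMIs (22.5 CPM) and 9 of 23 S100a10 UMIs (202 CPM) remained.

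Of the genes with the highest ratios, the neutrophil gene S100a9 led at 2.26 (1.62 to 3.10) with 0.978 in comparison barcodes, and the haemoglobin gene Hba-a1 had 1.67 and 1.83. RNA of these lineages lay unevenly over the KO members. Neutrophil genes were at 8870 CPM in the 7 KO members below 1000 UMIs, where 1 barcode had 5.41% of such UMIs, and at 1061 CPM in the other 27. Erythroid genes were at 178866 CPM in the 6 KO members with up to 1% mitochondrial UMIs. They were at 5364 and 2599 CPM in those at 1% to 3% and over 3%. Nfkbia, the inhibitor of NF-kappaB, was at 1.85 (1.36 to 2.48) and 1.54. The amino acid transporter gene Slc38a2, at 1.96 and 1.20, and Taf1d, which hosts small nucleolar RNAs, at 1.96 and 1.21, were followed by the splicing factor gene Tra2b at 1.84 and 1.11, the T cell adaptor gene Lat at 1.84 and 1.40, Rhoa at 1.78 and 1.12 and Gpx1 at 1.76 and 1.20. Without the deepest KO member, 27 of the 45 Tra2b UMIs and 18 of the 28 Rhoa UMIs remained, at 607 and 405 CPM beside 417 and 269 CPM in WT members.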

How the data were processed

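Splenic CD4+YFP+ cells were profiled by droplet single-cell RNA sequencing (10x Chromium, 3′ V3 chemistry). The authors deposited raw UMI counts per gene and barcode for 2 libraries and 32285 features, made with Cell Ranger 5.0.1 on mm10. Whether intronic reads were counted was not stated. The WT library held 14524 barcodes and 64567991 UMIs (median 2178 per barcode) and the KO library 18134 and 65480052 (2137). The gene and mitochondrial limits of the study were applied to the counts and kept 8053 WT and 13767 KO barcodes, of which 98.9% and 99.5% had a T UMI. The counts were not altered.

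UMIs were summed over members and over comparison barcodes and scaled to 1000000 (CPM) without the 4 rule genes. Intervals, at the 95% level, were exact conditional binomial for CPM ratios, Clopper-Pearson for shares and Newcombe for share differences. With 1 library per genotype no test was run. Log2 ratios add the CPM of 0.5 member UMI to both groups, 0.722 in WT and 8.54 in KO. Depth-weighted values use 10 UMI bins. Calls mean a ratio of at least 1.5-fold. Genes needed 200 UMIs per library, list genes 50 UMIs. In KO no gene with fewer than 200 UMIs was called lower in members. The genes named were the 10 highest and 10 lowest by the library nearer to no difference, for KO against WT the 10 highest and lowest with 200 UMIs, and up to 4 of each of 26 lists by UMIs. Huwe1, Utrn, Kmt2a, Kmt2d, Zfp36, Actb, Cdkn1a, Jpx, Pvt1, Airn, Mir142hg, Snhg14 and Phlda3 fell outside this rule and were named after their values were seen. 1 gene that the rule names is not reported here. Members and lists were chosen with earlier results of these data known, and depth classes, length classes and erythroid-rich subsets after seeing the data. Doublets were not removed in the main values. An alternative dropped those with the highest scores of scanpy 1.11.5. Python 3.11.15, numpy 2.4.6, scipy 1.17.1 and pandas 2.3.3 were used, and the scripts were tested on simulated data.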

Additional observations from a re-analysis of the deposited data

Results flagged for a closer look

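S phase genes were higher in WT members than in WT comparison barcodes, with a CPM ratio of 1.73, and lower in KO members, with a ratio of 0.738. The directions were opposite in these pooled sums, and the difference between the libraries was not tested. Weighted for depth the WT ratio was 1.15, and at 1000 to 2000 UMIs both libraries lay below 1, at 0.904 (0.775 to 1.05) in WT and 0.719 (0.470 to 1.06) in KO. Mitochondrially encoded genes were lower in WT members, at 0.966, and higher in KO members, at 1.37, and this difference was not tested either. At 1000 to 2000 UMIs these ratios were 1.01 (0.980 to 1.04) and 1.18 (1.10 to 1.27).

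Barcodes outside the rule also reached 5% of rule-gene UMIs. Among barcodes over 5% mitochondrial UMIs with at least 300 genes, 1094 of 6282 in WT (17.4%, 16.5 to 18.4) and 138 of 4295 in KO (3.21%, 2.71 to 3.78) did so, above the shares of 7.66% and 0.248% in T barcodes within the limit. Among filtered barcodes without a T UMI, 26 of 86 in WT did so (30.2%, 20.8 to 41.1), beside 0 of 64 in KO, which has an upper bound of 5.60%.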

How the results depend on the processing

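Of 115 values under alternatives, 1 reversed and 42 left a tolerance of 1.5 times for a count of genes, or the interval of the main value for a share or median. The other 72 stayed within it, which still allowed a KO nuclear-retained median of 0.10 at 1000 to 2000 UMIs, beside 0.65, and 494 to 1043 higher genes. The KO share of members was below the WT share under all 9 alternatives run for it. The WT share, KO share and KO minus WT difference in percentage points were 19.3%, 0.766% and -18.6 with a threshold of 3%, 0.728%, 0.0511% and -0.677 with 10%, and 11.0%, 0.540% and -10.5 with up to 10% mitochondrial UMIs. With at least 2 T UMIs the WT share was 6.87% and the difference -6.62. Further settings were added after seeing the data: from 1000 UMIs the WT share was 3.18% and the difference -2.96, and with a threshold of 4 times the library median the values were 6.93%, 0.985% and -5.94.

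The numbers of genes higher and lower in both libraries were 417 and 486 at the 10% threshold, and 422 and 358 centred on the median gene. Depth weighting gave 436 higher, up to 10% mitochondrial UMIs 1132 higher, the 3% threshold 72 lower and barcodes from 1000 UMIs 368 lower. They were 15 and 4 within 1000 to 2000 UMIs and 85 and 30 with a limit of 2000 UMIs per gene, where fewer genes passed the limit.

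The median log2 ratio of the nuclear-retained list in KO was -0.25 at the 10% threshold, where 7 members remained, and in WT it was 0.01 with the mean of single barcodes. The median of the ribosomal protein list stayed below 0 under every alternative run, although within WT barcodes below 1000 UMIs, 391 of the 610 WT members, it was 0.01. In WT it was -0.19 (3% threshold), -0.43 (10%), -0.41 (10% mitochondrial UMIs), -0.20 (depth weighting), -0.16 (mean of single barcodes), -0.37 (CPM over all UMIs), -0.49 (centred), -0.42 (from 1000 UMIs) and -0.18 (1000 to 2000 UMIs). In KO it was -0.32 (3%), -0.34 (10% mitochondrial UMIs), -0.35 (CPM over all UMIs) and -0.27 (without the deepest member).

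No paired analysis was possible because each genotype had 1 library, so that there was no replicate to leave out. The 34 KO members, with 58539 UMIs outside the rule genes, limit every KO value of a sparse gene.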
